A study of Mus musculus with 9 samples.

Results

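UDP-glucuronosyltransferases (UGT), sulfotransferases (SULT) and glutathione transferases (GST) are the enzymes that attach glucuronic acid, sulfate or glutathione to drugs, bile pigments, hormones and dietary toxins. Their genes were followed in mouse colon organoids, which are epithelial structures grown in culture from the colon. All genes named on the array whose mouse symbol starts with Ugt1, Ugt2, Ugt3, Sult, Gsta, Gstm, Gstp, Gstt, Gsto, Gstk, Gstz or Mgst were taken. This gave 58 of the 20660 named genes, on 80 of 55681 non-control probes, and comprised 14 UGT, 20 SULT, 21 soluble GST and 3 microsomal GST genes. Genes were taken by name and not by their values, but the names were chosen with earlier results of these data known.

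RNA was hybridised to 9 single-colour Agilent arrays in 3 groups of 3. The groups were organoids that had not been treated (0 weeks), and organoids after 12 weeks or 60 weeks of treatment with inflammatory agents that the labels do not name. No untreated culture of 12 or 60 weeks was measured, so an effect of treatment and one of culture time cannot be told apart. The labels give neither strain, age nor genotype and do not say whether the 3 replicates were separate animals or cultures, so p-values measure the spread between these arrays, which may be technical.

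The first step of detoxification usually adds or uncovers a reactive group, and conjugation, the second step, makes the product soluble enough for export by pumps of the ABC family. UGTs sit in the membrane of the endoplasmic reticulum and use UDP-glucuronate. SULTs are cytosolic and use the sulfate donor PAPS. Soluble GSTs, named after Greek letters (alpha, mu, pi, theta, omega, kappa, zeta), use glutathione against electrophiles and some peroxides, while the microsomal GSTs are unrelated membrane proteins of which some also make leukotrienes. In the colon the epithelium carries these enzymes as a barrier against luminal compounds, and mature surface cells are known for high UGT and SULT expression.

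Levels are log2 signals relative to the 75th percentile of the array, where a positive value means brighter than that percentile, and a level of one gene cannot be set against that of another. Changes are differences of these log2 values ± SE from limma, and a gene was called where its Benjamini-Hochberg adjusted p over all 14034 tested genes was under 0.05. Of the 58 genes, 38 had a probe well above background on at least 2 arrays of a group and were tested. The other 20 were not: Ugt2a1, Ugt2a3, Ugt2b1, Ugt2b5, Ugt2b35, Ugt2b36, Sult1c1, Sult1e1, Sult2a1, Sult2a2, Sult2a3, Sult2a4, Sult2a6, Sult2a7, Sult3a1, Sult3a2, Sult5a1, Sult6b1, Sult6b2 and Gstt4. Thus 8 of 14 UGT, 7 of 20 SULT, 20 of 21 soluble GST and 3 of 3 microsomal GST genes were tested. A member that entered only through the group where it was high was selected for that difference. The counts of calls below therefore describe the tested members and not all members. Gstt2, Sult4a1, Ugt2b38 and Ugt1a6a entered through the 12 weeks group alone, and Gstm7 through the 0 weeks group alone. A high level in that group was a condition of their being tested, so their adjusted p-values are no independent support for it.

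Between 49.2% and 52.7% of probes were well above background on each array. All 10 of 10 colon epithelium markers, among them Epcam, Vil1 and Cdx2, were above background on all 9 arrays. Of 10 hepatocyte markers 1 to 4 were above background on an array, with summed signals of 1.03 to 1.49 times the 75th percentile at 12 weeks against 0.276 to 0.366 in the other groups, and Alb, Apoa1, Ttr, Fgb, Ahsg and Cps1 were below background on all 9 arrays. On an array 2 to 3 of 10 fibroblast, 4 of 9 leukocyte and 4 to 6 of 10 endothelium markers were above background. Pdgfra and Dcn (fibroblasts), Ptprc and Lyz2 (leukocytes) and Cdh5 and Tie1 (endothelium) were among those below background on all 9 arrays. Summed signals were 0.219 to 0.362 for the fibroblast list and 9.69 to 14.3 for the endothelium list. The summed leukocyte list was 31.2 to 37.4 at 0 weeks, 50.4 to 68.3 at 12 weeks and 51.1 to 59.3 at 60 weeks. The summed signal of the mature colonocyte markers, of which Slc26a3 was below background on all 9 arrays, was 180 to 196 times the 75th percentile in the 0 weeks group, 110 to 304 in the 12 weeks group and 99.5 to 115 in the 60 weeks group. Of the 8 tested, 5 rose and 1 fell at 12 against 0 weeks, 0 rose and 1 fell at 60 against 0 weeks, and 0 rose and 5 fell at 60 against 12 weeks. Replicate 2 of the 12 weeks group stood apart from its partners, with correlations across genes of 0.978 and 0.977, against 0.992 between replicates 1 and 3. The Y-linked gene Ddx3y stood at 1.06 to 1.20 in the 0 weeks group and 1.43 to 1.49 in the 12 weeks group, and no 60 weeks array had it well above background. The part of these differences between groups in the results below was not tested.

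At 12 against 0 weeks, 11 of the 38 tested members rose and 13 fell (63.2% called), beside 41.8% of all 14034 tested genes (19.1% higher and 22.7% lower). With a change of at least 2-fold, 10 rose and 7 fell, beside 8.49% and 6.27% of all genes. At 60 against 0 weeks, 7 rose and 16 fell (60.5% called), beside 32.8% of all genes (16.7% higher and 16.1% lower), and with at least 2-fold 4 rose and 11 fell, beside 6.46% and 5.14%. At 60 against 12 weeks, 11 rose and 15 fell (68.4% called), beside 38.3% of all genes (20.7% higher and 17.6% lower), and with at least 2-fold 6 rose and 12 fell, beside 5.64% and 7.04%. The F test over the 3 groups called 32 of 38 members (84.2%), beside 56.7% of all genes. The median change of the tested members was -0.11 at 12 against 0 weeks (-0.06 over all tested genes), -0.58 at 60 against 0 weeks (-0.04) and -0.57 at 60 against 12 weeks (0.02).

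Several of these counts changed when a single array was left out, and the counts over all tested genes changed in the same direction. Without replicate 2 of the 12 weeks group the members higher and lower numbered 12 and 13 at 12 against 0 weeks, 11 and 17 at 60 against 0 weeks, and 13 and 19 at 60 against 12 weeks. Over all tested genes 7405, 6022 and 7072 were then called, against 5860, 4600 and 5378 with all arrays. At 12 against 0 weeks 7 rose without 0 weeks replicate 2, and 8 fell when 0 weeks replicate 2, 0 weeks replicate 3 or 12 weeks replicate 3 was left out. Over all tested genes 1994 rose without 0 weeks replicate 2 (2678 with all arrays). In those 3 fits 2234, 2261 and 2359 fell (3182 with all arrays). At 60 against 0 weeks 4 rose without 0 weeks replicate 3, and at 60 against 12 weeks 7 and 6 rose without replicates 1 and 3 of the 12 weeks group. Over all tested genes 1688 rose in the first of these fits (2341 with all arrays), and 2139 and 1880 in the others (2905 with all arrays). The first row of the first slide holds all 0 weeks arrays with 1 of the 12 weeks arrays. Its second row holds the remaining 12 weeks arrays with 2 of the 60 weeks arrays. The last array, 60 weeks replicate 3, is alone on its slide. With the row as a block that lone array drops out, and 12 against 0 weeks rests on 1 array of 12 weeks. This block gave 5 higher and 8 lower, 1 higher and 9 lower, and 4 higher and 14 lower in the same order. Over all 14034 tested genes calls were fewer as well, at 4473, 1392 and 3468 against 5860, 4600 and 5378 without the block. Within the first row, 24 of the 24 members called at 12 against 0 weeks had the same sign, and within the second row 26 of the 26 called at 60 against 12 weeks. These arrays are part of those that gave the calls, and the first row holds 1 of the 12 weeks arrays. Agreement in sign was therefore largely fixed in advance and cannot decide whether the row had an effect. No row holds arrays of both 60 and 0 weeks. With the row as a block, that comparison is therefore reached only through the 12 weeks arrays, replicate 2 among them. Scaling to the array median ended the calls at 12 against 0 weeks of Gstk1, Gstm4, Gstm5, Gstm7 and Gstp1, at 60 against 0 weeks of Gsta2, Gsta4, Gstm3 and Gstz1, and at 60 against 12 weeks of Gsta4 and Gstm1. Background correction by normexp ended those of Gstm7 and Ugt2b38 (0.27) at 12 against 0 weeks, Gsta2 and Ugt3a1 (0.28) at 60 against 0 weeks, and Gstt2 (-0.74) and Ugt3a1 (0.32) at 60 against 12 weeks. Fitting only the groups compared ended those of Gstm4, Gstm5, Gstm7, Gstp1, Gstt1 and Sult1b1 at 12 against 0 weeks and of Gstp3, Gstt1, Gstz1, Sult1a1 and Ugt3a1 at 60 against 12 weeks.

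**Figure D1:**
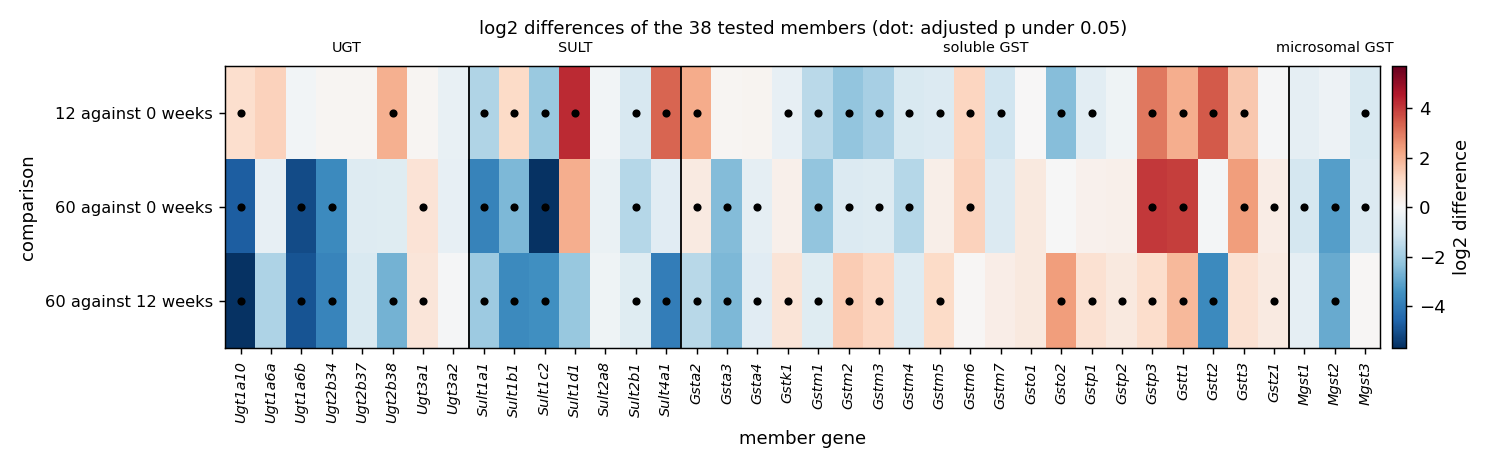
Each column is 1 of the 38 tested members, grouped by class of enzyme, and each row is 1 comparison; colour gives the log2 difference and a dot an adjusted p under 0.05. UGT and SULT columns are mostly blue at 60 weeks, while soluble GST columns are mixed, with Gstp3 (4.03) and Gstt1 (3.94) the reddest of that class at 60 against 0 weeks.

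The classes did not move as one. Of all tested genes 19.1% rose and 22.7% fell at 12 against 0 weeks, and 16.7% and 16.1% at 60 against 0 weeks. At 60 against 12 weeks 20.7% rose and 17.6% fell, and the counts below are to be read beside these shares. Of the 8 tested UGT genes 2 rose and 0 fell at 12 against 0 weeks, 1 rose and 3 fell at 60 against 0 weeks, and 1 rose and 4 fell at 60 against 12 weeks. Of the 7 SULT genes 3 rose and 3 fell at 12 against 0 weeks, and at 60 weeks 0 rose, 4 fell against 0 weeks and 5 fell against 12 weeks. Of the 20 soluble GST genes 6 rose and 9 fell at 12 against 0 weeks, 6 rose and 6 fell at 60 against 0 weeks, and 10 rose and 5 fell at 60 against 12 weeks. The 3 microsomal GST genes fell at 60 against 0 weeks (3 of 3) and 1 of them also fell in each of the other comparisons. At 12 against 0 weeks the shares called of UGT (25.0%) and microsomal GST genes (33.3%) were below that of all tested genes (41.8%). With the row as a block, soluble GST genes higher and lower numbered 3 and 6 at 12 against 0 weeks, 1 and 3 at 60 against 0 weeks, and 4 and 5 at 60 against 12 weeks. UGT genes then numbered 0 and 0, 0 and 3, and 0 and 4 in the same order of comparisons, SULT genes 2 and 1, 0 and 2, and 0 and 4, and microsomal GST genes 0 and 1 in each. Over all 14034 tested genes the row block gave 2193 higher and 2280 lower, 702 and 690, and 1692 and 1776 in that order. Differences between classes were not tested. The 38 genes fell into 16 patterns of calls. Gstm1, Sult1a1, Sult1c2 and Sult2b1 fell in all 3 comparisons, and Gstp3 and Gstt1 rose in all 3. Gsta3, Gsta4, Mgst2, Ugt1a6b and Ugt2b34 were called lower at 60 weeks against both other groups with no call between those 2. Gsto2, Gstm5, Gstp1 and Gstk1 fell at 12 weeks and rose at 60 against 12 weeks, with no call at 60 against 0 weeks. Gstt2, Sult4a1 and Ugt2b38 rose at 12 weeks and fell at 60 against 12 weeks, again with no call at 60 against 0 weeks. These last genes were tested only because they were above background at 12 weeks, so their pattern was favoured by the filter.

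Promoter sequences of members that moved in the same direction are shown first, because the regulators of these enzymes are known to act through short DNA motifs. RefSeq windows of 300 bases (250 before and 50 after the annotated start, build GRCm38.p6) were found for 50 of the 58 members, in 62 windows. A match is a description of letters and not a bound site. The antioxidant response element, through which the factor NRF2 (gene Nfe2l2) drives many conjugation genes, was searched by its core TGACNNNGC on both strands. It was present in 12.4% of all 32851 windows and in 4 of the 62 member windows (6.45%), those of Gsta3, Mgst1, Gstm5 and Gstm7. The windows of Gsta3 (chr1:21240335-21240634, plus strand) and Mgst1 (chr6:138140277-138140576, plus strand) are shown because both genes fell at 60 against 0 weeks. Capitals mark the core, at positions -121 to -113 from the start in Gsta3 and -56 to -48 in Mgst1, there on the opposite strand.
Gsta3: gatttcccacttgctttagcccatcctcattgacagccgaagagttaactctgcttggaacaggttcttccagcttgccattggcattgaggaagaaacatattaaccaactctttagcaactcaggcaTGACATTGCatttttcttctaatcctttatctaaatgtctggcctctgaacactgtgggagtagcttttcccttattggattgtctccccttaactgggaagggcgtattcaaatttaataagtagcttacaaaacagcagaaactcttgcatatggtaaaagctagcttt
Mgst1: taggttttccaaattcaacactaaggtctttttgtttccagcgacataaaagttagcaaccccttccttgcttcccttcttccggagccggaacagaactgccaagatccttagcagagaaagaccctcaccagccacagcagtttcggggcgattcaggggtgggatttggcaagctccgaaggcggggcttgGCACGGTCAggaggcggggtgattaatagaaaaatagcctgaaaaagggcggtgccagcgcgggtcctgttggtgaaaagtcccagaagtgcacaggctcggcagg

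The core recognised by the aryl hydrocarbon receptor, GCGTG on both strands, was present in 32.4% of all windows and in 11 of the 62 member windows (17.7%), of 9 genes, among them Gstm1, Gstp1, Sult1b1 and Sult2b1. The shares of member windows are given beside those of all windows with no test.

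Both genes of the Ugt1 locus that had signal at 0 weeks fell steeply at 60 weeks. Ugt1a6b, an isoform of the UGT1A6 type that conjugates small phenols, stood at 4.58, 4.23 and 4.56 on the 0 weeks arrays, 4.51, 3.58 and 4.77 at 12 weeks and -0.73, -0.85 and -0.36 at 60 weeks. Each 60 weeks array lay far below all the others, and the 12 and 0 weeks arrays overlapped. The change was -5.11 ± 0.29 at 60 against 0 weeks (adjusted p = 8.36e-06), -4.94 ± 0.29 at 60 against 12 weeks (adjusted p = 1.18e-05) and -0.17 ± 0.29 at 12 against 0 weeks (adjusted p = 0.669). A second probe of Ugt1a6b was below background on every 60 weeks array, so the size of its fitted fall there (5.38 against 0 weeks) was not measured. This probe fell by 1.23 at 12 against 0 weeks (adjusted p = 0.00655), so the probes differ on the earlier change. In bulk RNA, fewer cells of a type and less RNA per cell cannot be told apart.

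Ugt1a10, an isoform known mainly from the gut, stood at -2.07, -2.16 and -1.67 at 0 weeks and at -0.87, -1.40 and -0.76 at 12 weeks, while no 60 weeks array had it well above background. The 12 weeks arrays all lay above the 0 weeks arrays. It rose by 0.96 ± 0.28 at 12 against 0 weeks (adjusted p = 0.0246), a call that ended without 0 weeks replicate 1 or 2 or 12 weeks replicate 1 or 3 (0.83 to 1.15 over the arrays left out, highest adjusted p = 0.0822). At 60 weeks it was at least 6.98-fold lower than at 0 weeks (adjusted p = 1.01e-05) and at least 13.5-fold lower than at 12 weeks (adjusted p = 4.83e-06). Its second probe, also below background at 60 weeks, was not called at 12 against 0 weeks (0.71, adjusted p = 0.0675). Ugt1a6a was above background on 2 of the 12 weeks arrays and on no array of the other groups, and was not called; without 12 weeks replicate 2 it was called in both comparisons with 12 weeks (2.08 at 12 against 0 weeks, adjusted p = 0.00605; -2.55 at 60 against 12 weeks, adjusted p = 0.00257). The isoforms of Ugt1 share their later exons, so which transcripts a probe reads is uncertain, and other Ugt1a isoforms were not named by any probe.

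The Ugt2 genes, known for steroids and bile acids as substrates, gave 1 member with strong signal. Ugt2b34 stood at 3.12, 3.17 and 2.59 on the 0 weeks arrays, 3.45, 2.37 and 3.44 at 12 weeks and -1.12, -0.32 and -0.59 at 60 weeks. As with Ugt1a6b, the 60 weeks arrays lay below all others and the 12 and 0 weeks arrays overlapped. The change was -3.64 ± 0.33 at 60 against 0 weeks (adjusted p = 0.000107), -3.76 ± 0.33 at 60 against 12 weeks (adjusted p = 0.000114) and 0.13 ± 0.33 at 12 against 0 weeks (adjusted p = 0.781). Its neighbour among the tested genes, Ugt2b37, was near background in all groups and was not called in any comparison. Ugt2b38, 2 tested genes away, was above background on 2 of the 3 arrays of 12 weeks only, at least 1.51-fold higher than at 0 weeks (adjusted p = 0.0121; the fitted 2.03 became 2.62 without 0 weeks replicate 1), and at 60 weeks it was at least 1.55-fold lower than at 12 weeks (adjusted p = 0.00412). The median over the 876 tested genes of chromosome 5, which holds these genes, was 0.17 at 12 against 0 weeks and 0.11 at 60 against 0 weeks.

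Ugt3a1 and Ugt3a2, which in humans use other sugars than glucuronate, were dim. Ugt3a1 rose at 60 weeks by 0.79 ± 0.21 against 0 weeks (adjusted p = 0.0212; 0.56 to 0.91 with 1 array left out, not called without 0 weeks replicate 3) and by 0.69 ± 0.21 against 12 weeks (adjusted p = 0.0316; not called without 12 weeks replicate 1 or 3 or 60 weeks replicate 1, highest adjusted p = 0.0882). Ugt3a2 was not called. With the row as a block the calls of Ugt1a10 (adjusted p = 0.0648) and Ugt2b38 (0.0512) at 12 against 0 weeks, and those of Ugt3a1 at 60 weeks (0.259 against 0 weeks and 0.0818 against 12 weeks), ended.

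**Figure D2:**
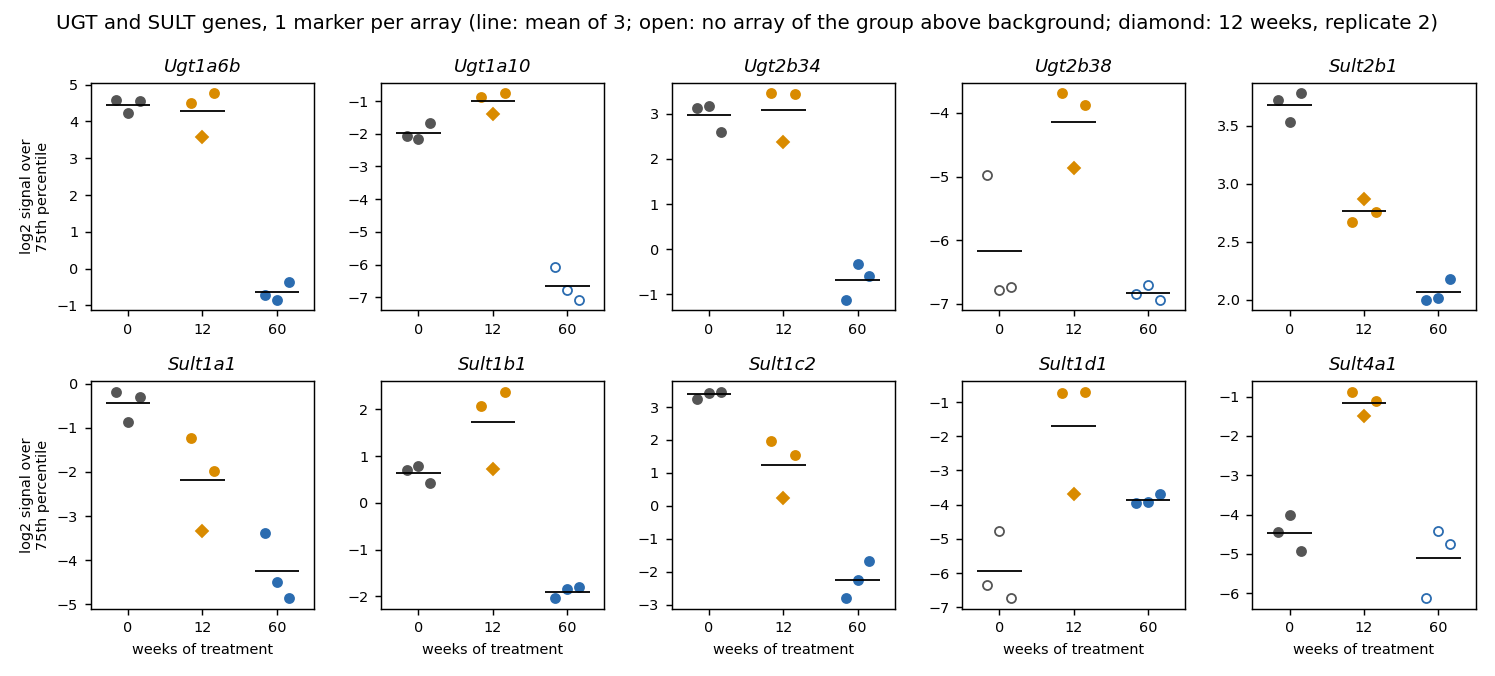
Log2 signal of 4 UGT and 6 SULT genes on each array at 0, 12 and 60 weeks of treatment, with the mean of the 3 arrays as a line, open symbols where no array of the group was above background and a diamond for 12 weeks replicate 2. Ugt1a6b, Ugt2b34 and Sult1c2 stand lowest at 60 weeks, and Sult1d1 and Sult4a1 highest at 12 weeks.

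Among the SULT genes the largest fall at 60 against 0 weeks was that of Sult1c2. It stood at 3.25, 3.43 and 3.47 on the 0 weeks arrays, 1.98, 0.24 and 1.54 at 12 weeks and -2.81, -2.25 and -1.67 at 60 weeks. No groups overlapped. It fell by 2.13 ± 0.44 at 12 against 0 weeks (adjusted p = 0.00564) and by 5.63 ± 0.44 at 60 against 0 weeks (49.5-fold, adjusted p = 4.4e-05), and by 3.49 ± 0.44 at 60 against 12 weeks (adjusted p = 0.000719). Sult1a1, which sulfates phenols, fell in the same order of groups. Its values were -0.18, -0.87 and -0.30 on the 0 weeks arrays, -1.22, -3.33 and -1.98 at 12 weeks and -3.39, -4.50 and -4.86 at 60 weeks, where 1 of 3 arrays was above background. It fell by 1.72 ± 0.55 at 12 against 0 weeks (adjusted p = 0.0364) by 3.8 ± 0.55 at 60 against 0 weeks (adjusted p = 0.00134) and by 2.07 ± 0.55 at 60 against 12 weeks (adjusted p = 0.0197), and a second probe gave -1.81, -4.24 and -2.43.

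Sult2b1, which sulfates cholesterol and other sterols, stood at 3.72, 3.53 and 3.78 on the 0 weeks arrays, 2.67, 2.87 and 2.76 at 12 weeks and 2.0, 2.02 and 2.18 at 60 weeks, with no overlap. It fell by 0.91 ± 0.11 at 12 against 0 weeks (adjusted p = 0.00035), by 1.61 ± 0.11 at 60 against 0 weeks (adjusted p = 1.76e-05) and by 0.70 ± 0.11 at 60 against 12 weeks (adjusted p = 0.00173). Sult2a8, a hydroxysteroid sulfotransferase gene of mice, was not called in any comparison.

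The 3 SULT genes that rose at 12 against 0 weeks were Sult1b1, Sult1d1 and Sult4a1, of which Sult1b1 and Sult4a1 were called lower at 60 against 12 weeks. Sult1b1, which sulfates phenols and thyroid hormone, stood at 0.71, 0.78 and 0.42 on the 0 weeks arrays, 2.07, 0.73 and 2.38 at 12 weeks and -2.04, -1.85 and -1.80 at 60 weeks. Replicate 2 of the 12 weeks group lay among the 0 weeks arrays, and the 60 weeks arrays lay below all others. The change was 1.09 ± 0.37 at 12 against 0 weeks (adjusted p = 0.0454), -2.54 ± 0.37 at 60 against 0 weeks (adjusted p = 0.00137) and -3.63 ± 0.37 at 60 against 12 weeks (adjusted p = 0.000265). The rise at 12 weeks was not called when any array other than 12 weeks replicate 2 was left out (0.76 to 1.59, highest adjusted p = 0.136).

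Sult1d1, which in mice sulfates catecholamines, lies next to Sult1b1 among the tested genes. No 0 weeks array had it above background, and it stood at -0.73, -3.69 and -0.69 at 12 weeks and -3.95, -3.92 and -3.70 at 60 weeks. It was at least 8.15-fold higher at 12 weeks than at 0 weeks (adjusted p = 0.00412), a difference that the filter favoured. The fitted change of 4.24 became 5.23 without 12 weeks replicate 2 and 4.83 without 0 weeks replicate 2. Its changes at 60 weeks were not called (adjusted p = 0.0831 against 0 weeks and 0.0673 against 12 weeks), but were without 12 weeks replicate 2 (0.00898 and 0.00193). A second probe of Sult1d1 was not above background on any array and was not tested.

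Sult4a1, a brain-enriched member with no settled substrate, stood at -4.45, -4.02 and -4.93 at 0 weeks, where 1 of 3 arrays was above background, and at -0.87, -1.49 and -1.12 at 12 weeks. On the 60 weeks arrays it was below background. The 12 weeks arrays lay above all others. It was 3.31 ± 0.43 higher at 12 against 0 weeks (adjusted p = 0.000615), a value measured against a group with 2 of 3 arrays not above background, and was at least 11-fold lower at 60 than at 12 weeks (adjusted p = 0.000355). A second probe of Sult4a1 was above background on 1 of the 12 weeks arrays only and was not tested. Of the SULT calls, that of Sult1a1 at 12 against 0 weeks ended without each 0 weeks array, 12 weeks replicate 2 or 3, or 60 weeks replicate 2 (-2.20 to -1.14, highest adjusted p = 0.101), and that at 60 against 12 weeks without 12 weeks replicate 1 or 3 or 60 weeks replicate 2 or 3 (-2.65 to -1.59, highest adjusted p = 0.0632). With the row as a block Sult1a1 (adjusted p = 0.385, 0.176 and 0.134 at 12 against 0, 60 against 0 and 60 against 12 weeks), Sult1b1 (0.1 at 12 against 0 and 0.142 at 60 against 0 weeks) and Sult1c2 (0.0689 at 12 against 0 weeks) lost calls.

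The alpha GST genes, which act on lipid peroxides and steroid isomers, went separate ways. Gsta2 stood at 4.93, 4.91 and 4.97 on the 0 weeks arrays, 7.04, 6.71 and 7.36 at 12 weeks and 5.35, 5.33 and 5.71 at 60 weeks. No groups overlapped, and the 12 weeks arrays were highest. It rose by 2.10 ± 0.17 at 12 against 0 weeks (4.29-fold, adjusted p = 5.08e-05) and fell by 1.58 ± 0.17 at 60 against 12 weeks (adjusted p = 0.000371). The rise of 0.53 ± 0.17 at 60 against 0 weeks (adjusted p = 0.0485) ended when any 1 of 7 arrays was left out (each 0 and 60 weeks array and 12 weeks replicate 1, 0.40 to 0.59, highest adjusted p = 0.137) and with the row as a block (0.462). The predicted genes Gm3776 and Gm10639, its neighbours on chromosome 9, changed by 2.25 and 1.86 at 12 against 0 weeks, and near-identical sequence could let probes read more than one of these genes.

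Gsta3, known in mice for detoxifying aflatoxin, stood at 5.28, 5.15 and 5.35 on the 0 weeks arrays, 5.32, 5.53 and 5.30 at 12 weeks and 2.65, 2.22 and 3.56 at 60 weeks. Only the 60 weeks arrays were apart from the others. It fell by 2.45 ± 0.29 at 60 against 0 weeks (5.47-fold, adjusted p = 0.000453) and by 2.57 ± 0.29 at 60 against 12 weeks (adjusted p = 0.000431), and a second probe gave -2.37 and -2.50. Gsta4, which clears 4-hydroxynonenal, a product of lipid peroxidation, fell by 0.52 ± 0.14 at 60 against 0 weeks (adjusted p = 0.0225) and by 0.66 ± 0.14 at 60 against 12 weeks (adjusted p = 0.00793). With scaling to the array median neither was called (-0.40, adjusted p = 0.203, and -0.51, adjusted p = 0.0845). The first also ended without 0 weeks replicate 2 or 3 or 60 weeks replicate 1 or 2 (-0.65 to -0.44, highest adjusted p = 0.0823) and with the row as a block (0.13).

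The 7 mu GST genes form a cluster on chromosome 3, where they followed each other among the tested genes. At 12 against 0 weeks 1 rose and 6 fell. Gstm2 stood at 5.01, 4.82 and 5.11 on the 0 weeks arrays, 2.75, 2.65 and 2.85 at 12 weeks and 3.95, 4.29 and 4.34 at 60 weeks. The groups did not overlap, with 12 weeks lowest. It changed by -2.23 ± 0.13 at 12 against 0 weeks (adjusted p = 9.09e-06), -0.79 ± 0.13 at 60 against 0 weeks (adjusted p = 0.00278) and 1.44 ± 0.13 at 60 against 12 weeks (adjusted p = 0.000142), and its 3 probes gave -2.23 to -2.30, -0.79 to -0.94 and 1.36 to 1.45. Gstm1 instead stood lowest at 60 weeks. Its values were 2.97, 2.76 and 3.27 on the 0 weeks arrays, 1.40, 1.48 and 1.56 at 12 weeks and 0.57, 0.55 and 1.19 at 60 weeks. It fell by 1.52 ± 0.20 at 12 against 0 weeks (adjusted p = 0.000599), by 2.23 ± 0.20 at 60 against 0 weeks (adjusted p = 8.64e-05) and by 0.71 ± 0.20 at 60 against 12 weeks (adjusted p = 0.0219). The last was not called without 12 weeks replicate 3 or 60 weeks replicate 1 or 2 (-0.93 to -0.60, highest adjusted p = 0.0785), nor with scaling to the median (-0.57, adjusted p = 0.117).

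Gstm3 was measured by 2 probes that disagreed. The probe standing for the gene stood at 1.53, 1.26 and 1.68 on the 0 weeks arrays, -0.44, -0.27 and -0.46 at 12 weeks and 0.57, 0.68 and 1.07 at 60 weeks, and changed by -1.88 ± 0.16 at 12 against 0 weeks (adjusted p = 5.85e-05), -0.72 ± 0.16 at 60 against 0 weeks (adjusted p = 0.00994) and 1.16 ± 0.16 at 60 against 12 weeks (adjusted p = 0.00112). The second stood at -1.29, -1.40 and -1.19 on the 0 weeks arrays, -2.53, -0.61 and -2.34 at 12 weeks and 0.85, 0.74 and 1.68 at 60 weeks, a change of 2.39 at 60 against 0 weeks (adjusted p = 0.00643). The 2 probes therefore had opposite calls at 60 against 0 weeks, and their mean rose by 0.83 without a call (adjusted p = 0.0613). Both probes rose at 60 against 12 weeks. Mu genes resemble each other in sequence, and which transcripts each probe reads was not tested.

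Gstm4 and Gstm5 moved apart at 60 weeks. Gstm4 stood at 0.88, 0.76 and 0.94 on the 0 weeks arrays, -0.51, 0.79 and -0.26 at 12 weeks and -0.81, -0.84 and -0.60 at 60 weeks, and fell by 1.61 ± 0.29 at 60 against 0 weeks (adjusted p = 0.00399). Gstm5 stood at 3.21, 3.15 and 3.26 on the 0 weeks arrays, 2.06, 3.18 and 2.06 at 12 weeks and 3.51, 3.48 and 3.62 at 60 weeks, and rose by 1.10 ± 0.27 at 60 against 12 weeks (adjusted p = 0.0141; 0.92 and adjusted p = 0.0507 without 12 weeks replicate 3). In both genes replicate 2 of the 12 weeks group lay within the range of the 0 weeks arrays, and the other 2 arrays of 12 weeks lay below it. Their falls at 12 against 0 weeks (0.86 ± 0.29 lower, adjusted p = 0.0457, and 0.78 ± 0.27 lower, adjusted p = 0.0491) were called with that replicate left out (adjusted p = 0.000154 and 4.56e-05) and ended when any other array was (highest adjusted p = 0.138 and 0.153). A second probe of Gstm4 fell by 1.58 at 12 against 0 weeks (adjusted p = 0.000375).

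Gstm6 was the mu gene called higher at 12 and 60 weeks against 0 weeks. It stood at -3.04, -2.30 and -2.14 on the 0 weeks arrays, -1.41, -0.84 and -1.55 at 12 weeks and -1.35, -1.43 and -0.80 at 60 weeks. Both later groups lay above the 0 weeks arrays and overlapped each other. It rose by 1.22 ± 0.29 at 12 against 0 weeks (adjusted p = 0.0107) and by 1.30 ± 0.29 at 60 against 0 weeks (adjusted p = 0.0102). Gstm7 stood at -4.53, -4.27 and -3.69 at 0 weeks, was below background on every 12 weeks array, and was at least 1.70-fold lower there (adjusted p = 0.0446). That call ended when any array but 12 weeks replicate 2 and 60 weeks replicate 3 was left out (highest adjusted p = 0.141). A second probe of Gstm7 was not above background on any array and was not tested. With the row as a block, calls at 12 against 0 weeks ended for Gstm5 (adjusted p = 0.0641), Gstm6 (0.0893) and Gstm7 (0.213), at 60 against 0 weeks for Gstm2 (0.0913), Gstm3 (0.0703) and Gstm6 (0.335), and at 60 against 12 weeks for Gstm5 (0.102).

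The pi GST genes lie next to each other on chromosome 19, and they differed widely in how far they moved. Gstp3 stood at -2.30, -2.23 and -2.44 on the 0 weeks arrays, 1.01, 0.08 and 0.99 at 12 weeks and 1.46, 1.47 and 2.20 at 60 weeks. No groups overlapped, with 60 weeks highest. It rose by 3.02 ± 0.29 at 12 against 0 weeks (8.11-fold, adjusted p = 0.000112) and by 4.03 ± 0.29 at 60 against 0 weeks (16.3-fold, adjusted p = 2.6e-05). At 60 against 12 weeks it rose by 1.01 ± 0.29 (adjusted p = 0.0245), which ended without 60 weeks replicate 3 (0.70 to 1.17 over the arrays left out, highest adjusted p = 0.0676) and with the row as a block (0.0592).

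Gstp1, the main pi enzyme, and its close copy Gstp2 changed far less. Gstp1 stood at 6.54 to 6.77 at 0 weeks, 5.79 to 6.46 at 12 weeks and 6.83 to 6.99 at 60 weeks. It fell by 0.61 ± 0.17 at 12 against 0 weeks (adjusted p = 0.0227, not called without 0 weeks replicate 2 or 3 or 12 weeks replicate 1 or 3, -0.82 to -0.48, highest adjusted p = 0.0769) and rose by 0.87 ± 0.17 at 60 against 12 weeks (adjusted p = 0.00582). Gstp2 stood at 8.32 to 8.69 at 0 weeks, 8.05 to 8.53 at 12 weeks and 8.74 to 8.91 at 60 weeks, and rose by 0.55 ± 0.15 at 60 against 12 weeks (adjusted p = 0.0202, not called without 12 weeks replicate 1 or 3 or 60 weeks replicate 2, highest adjusted p = 0.0645). At 60 against 0 weeks Gstp1 changed by 0.26 ± 0.17 (adjusted p = 0.278) and Gstp2 by 0.31 ± 0.15 (adjusted p = 0.146). Second probes of each were called higher there, by 0.59 and 0.81 (adjusted p = 0.0405 and 0.00465). The median over the 494 tested genes of chromosome 19 was -0.03 at 12 against 0 weeks, and at 60 weeks it was 0.37 against 0 weeks and 0.44 against 12 weeks. With values centred on chromosome medians, the rises at 60 against 12 weeks of Gstp1 (0.45, adjusted p = 0.0668), Gstp2 (0.13, adjusted p = 0.522) and Gstp3 (0.59, adjusted p = 0.126) were not called, and those of Gstp3 against 0 weeks were. Gstp1 (adjusted p = 0.0502) and Gstp2 (0.108) also lost them with the row as a block.

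The start regions of the 3 pi genes are shown because these neighbours differed in their values. Each line holds the 100 bases before the annotated start in lower case and the first 50 bases from it in capitals, on the minus strand of build GRCm38.p6, at chr19:4037863-4038012 (Gstp1), chr19:4042172-4042321 (Gstp2) and chr19:4059398-4059547 (Gstp3).
Gstp1: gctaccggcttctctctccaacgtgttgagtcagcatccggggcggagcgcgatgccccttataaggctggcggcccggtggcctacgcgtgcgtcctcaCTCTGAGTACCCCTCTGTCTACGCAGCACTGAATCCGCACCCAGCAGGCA
Gstp2: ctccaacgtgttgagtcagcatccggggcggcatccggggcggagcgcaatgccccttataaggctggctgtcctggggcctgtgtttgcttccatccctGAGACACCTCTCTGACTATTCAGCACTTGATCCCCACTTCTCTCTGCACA
Gstp3: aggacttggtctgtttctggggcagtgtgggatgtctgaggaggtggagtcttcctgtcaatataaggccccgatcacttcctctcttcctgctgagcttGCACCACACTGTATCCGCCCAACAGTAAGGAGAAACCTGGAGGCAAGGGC
Over the whole windows of 300 bases, Gstp1 and Gstp2 were 76.4% identical in a global alignment (243 of 318 columns), Gstp1 and Gstp3 48.3% and Gstp2 and Gstp3 43.6%. Between the windows of mu genes the identity was 44.8% to 48.1%.

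The theta GST genes, which act on small halogenated compounds, were spread widely between the 12 weeks arrays. Gstt1 stood at 3.39, 3.16 and 2.98 on the 0 weeks arrays, 4.13, 6.80 and 4.84 at 12 weeks and 7.18, 7.13 and 7.02 at 60 weeks. The groups did not overlap, and 12 weeks replicate 2 lay close to the 60 weeks arrays. It rose by 2.08 ± 0.57 at 12 against 0 weeks (adjusted p = 0.0193), by 3.94 ± 0.57 at 60 against 0 weeks (15.3-fold, adjusted p = 0.00127) and by 1.86 ± 0.57 at 60 against 12 weeks (adjusted p = 0.0327). Gstt3, its neighbour, stood at 3.12, 2.73 and 2.92 on the 0 weeks arrays, 3.81, 5.57 and 3.94 at 12 weeks and 5.49, 5.19 and 5.26 at 60 weeks. Here replicate 2 lay above all 60 weeks arrays and its partners below them. Gstt3 rose by 1.52 ± 0.41 at 12 against 0 weeks (adjusted p = 0.0189) and by 2.39 ± 0.41 at 60 against 0 weeks (5.23-fold, adjusted p = 0.00305).

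Gstt2, next to Gstt1 on the other side, was seen at 12 weeks alone. It stood at -3.95, -1.36 and -2.98 there and was below background on every array at 0 and 60 weeks. It was at least 3.94-fold higher at 12 than at 0 weeks (adjusted p = 0.00165) and at least 4.02-fold lower at 60 than at 12 weeks (adjusted p = 0.0018), and its fitted changes were 2.80 and -2.92 without 12 weeks replicate 2 and 4.10 and -4.22 without 12 weeks replicate 1. All 3 theta genes were thus highest in replicate 2 within the 12 weeks group. Without it, Gstt1 rose by 1.31 at 12 against 0 weeks and by 2.63 at 60 against 12 weeks, and Gstt3 rose by 1.43 at 60 against 12 weeks (adjusted p = 0.000202), where it was not called with all arrays (0.87, adjusted p = 0.13). The 12 weeks rises of Gstt1 and Gstt3 were not called without 0 weeks replicate 2 or 3 (highest adjusted p = 0.0612 and 0.0626), and the rise of Gstt1 at 60 against 12 weeks ended when any of 6 arrays was left out (0 weeks replicate 2, 12 weeks replicates 1 and 3 and each 60 weeks array, highest adjusted p = 0.101).

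Tested genes beside the theta cluster on chromosome 10 moved too, by smaller amounts than Gstt1 and Gstt3. Ddt, Cabin1 and Derl3 rose by 0.66, 0.58 and 1.34 at 12 against 0 weeks and by 0.82, 0.75 and 1.20 at 60 against 0 weeks, and Mif was not called in either. The median over the 653 tested genes of chromosome 10 was 0.28 at 60 against 0 weeks and -0.08 at 12 against 0 weeks. With the row as a block, Gstt1 (adjusted p = 0.307, 0.158 and 0.139 at 12 against 0, 60 against 0 and 60 against 12 weeks) and Gstt3 (0.266 and 0.259 at 12 and at 60 against 0 weeks) were not called. With values centred on chromosome medians the rise of Gstt1 at 60 against 12 weeks was 1.49 (adjusted p = 0.0727). Within the first row Gstt1 was 0.95 and Gstt3 0.89 higher on the 12 weeks array than on the 0 weeks arrays.

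Gsto2, an omega GST that reduces dehydroascorbate, fell and came back. It stood at 2.22, 2.21 and 2.42 on the 0 weeks arrays, -0.55, 0.78 and -0.64 at 12 weeks and 2.33, 2.23 and 2.20 at 60 weeks. The 12 weeks arrays lay below all others and the 60 and 0 weeks arrays overlapped. It fell by 2.42 ± 0.33 at 12 against 0 weeks (5.36-fold, adjusted p = 0.000796) and rose by 2.39 ± 0.33 at 60 against 12 weeks (adjusted p = 0.00116), with -0.03 ± 0.33 at 60 against 0 weeks (adjusted p = 0.951). Its partner Gsto1 stood at 8.36 to 8.69 at 0 weeks, 8.20 to 9.06 at 12 weeks and 9.01 to 9.12 at 60 weeks, and was not called in any comparison, but at 60 weeks was without 12 weeks replicate 2 (0.57 against 0 weeks, adjusted p = 0.0039, and 0.81 against 12 weeks, adjusted p = 0.00101).

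Gstk1, the kappa enzyme of mitochondria and peroxisomes, fell by 0.46 ± 0.10 at 12 against 0 weeks (adjusted p = 0.00861, 0.0811 with scaling to the median and 0.0603 with the row as a block) and rose by 0.74 ± 0.10 at 60 against 12 weeks (adjusted p = 0.00123). Gstz1, the zeta enzyme of tyrosine breakdown, rose at 60 weeks by 0.41 ± 0.13 against 0 weeks (adjusted p = 0.0434) and by 0.49 ± 0.13 against 12 weeks (adjusted p = 0.0206). The first call ended when any array of 0 or 60 weeks was left out (highest adjusted p = 0.14), and the second without 12 weeks replicate 1 or 3 or 60 weeks replicate 1 or 3 (highest adjusted p = 0.0747), and both ended with the row as a block (0.715 and 0.143). The median of chromosome 12, which holds Gstz1, was 0.22 at 60 against 0 weeks.

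**Figure D3:**
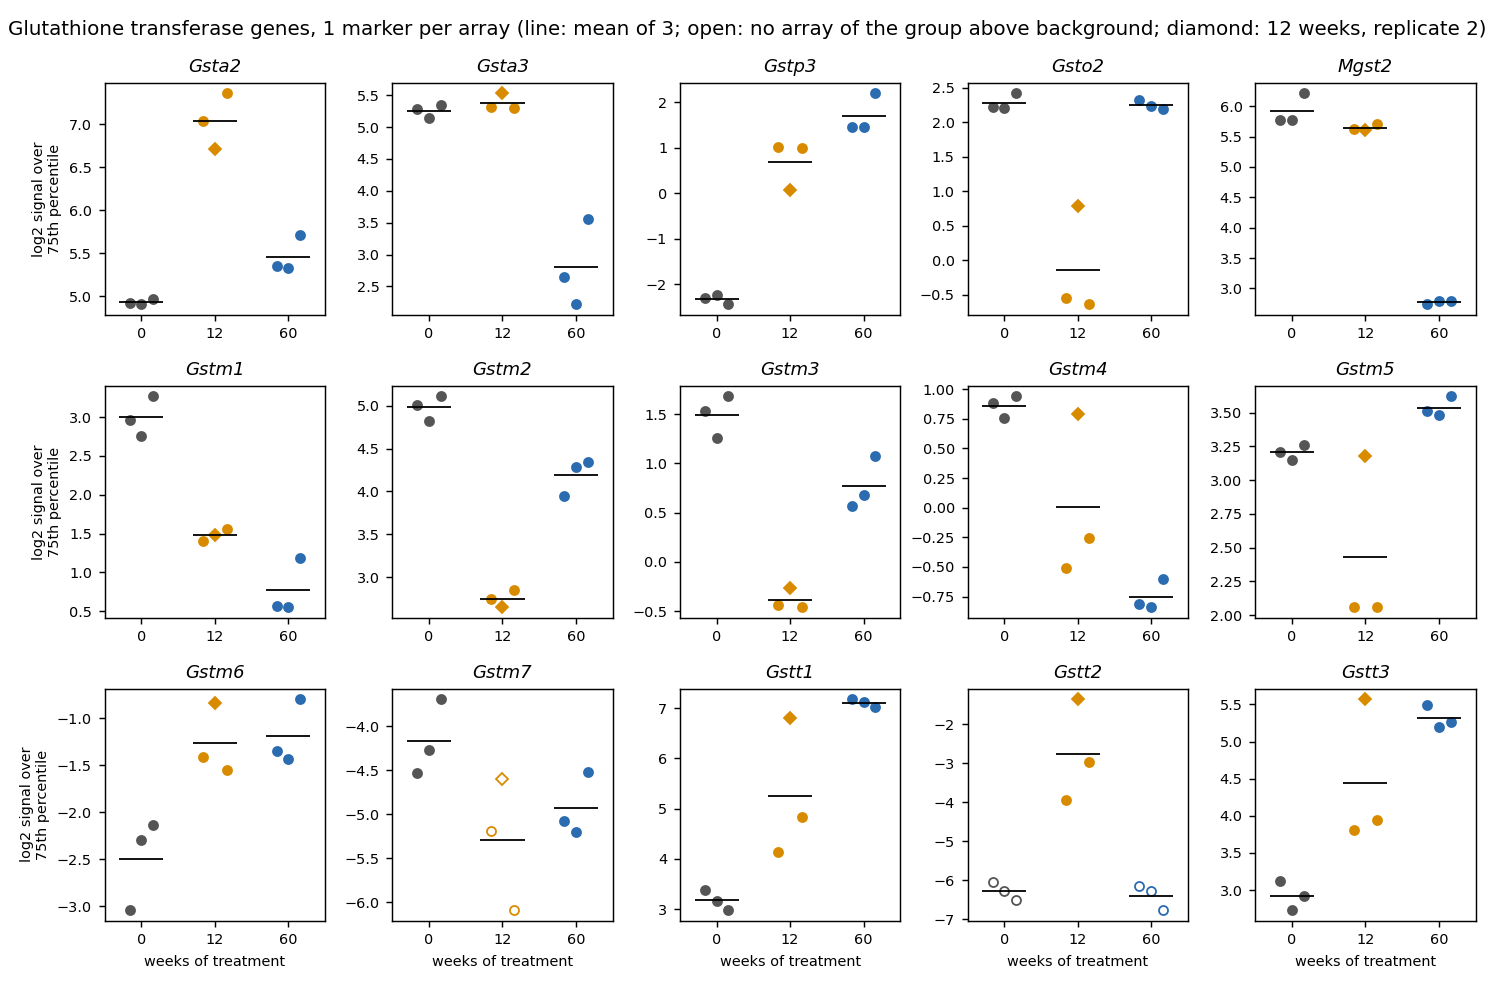
Log2 signal of 14 soluble GST genes and Mgst2 on each array at 0, 12 and 60 weeks of treatment, with the mean of the 3 arrays as a line, open symbols where no array of the group was above background and a diamond for 12 weeks replicate 2. Gstp3, Gstt1 and Gstt3 stand lowest at 0 weeks, Gsta2 and Gstt2 highest at 12 weeks, and Gsto2 lowest at 12 weeks.

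The microsomal GSTs fell together at 60 against 0 weeks, by unequal amounts. Mgst2, which can make leukotriene C4, stood at 5.77, 5.78 and 6.21 on the 0 weeks arrays, 5.62, 5.60 and 5.71 at 12 weeks and 2.74, 2.80 and 2.79 at 60 weeks. The 60 weeks arrays were far below the others and close to each other. It fell by 3.14 ± 0.13 at 60 against 0 weeks (8.83-fold, adjusted p = 1.55e-06) and by 2.87 ± 0.13 at 60 against 12 weeks (adjusted p = 2.56e-06), with -0.28 ± 0.13 at 12 against 0 weeks (adjusted p = 0.113). Its nearest tested neighbours 5031434O11Rik and Maml3 changed by -0.05 and -0.23 at 60 against 0 weeks without a call.

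Mgst1, the broad microsomal transferase and peroxidase, stood at 5.63 to 5.92 at 0 weeks, 4.75 to 5.59 at 12 weeks and 4.60 to 4.98 at 60 weeks, and fell by 1.0 ± 0.21 at 60 against 0 weeks (adjusted p = 0.00879). Mgst3 stood at 4.98 to 5.35 at 0 weeks, 4.17 to 4.44 at 12 weeks and 4.14 to 4.47 at 60 weeks. It fell by 0.85 ± 0.14 at 12 against 0 weeks (adjusted p = 0.002) and by 0.79 ± 0.14 at 60 against 0 weeks (adjusted p = 0.00358), and the 2 later groups overlapped. The row as a block ended the calls of Mgst1 (adjusted p = 0.315) and Mgst3 (0.103) at 60 against 0 weeks.

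Replicate 2 of the 12 weeks group lay far from its partners in a larger share of these genes than of all tested genes. Its distance from the mean of replicates 1 and 3 was at least 1 in 16 of 38 members (42.1%, median 0.69), beside 9.03% of all tested genes (median 0.29). By class, it was lower by at least 1 in 5 of 8 UGT genes (Ugt1a6a, Ugt1a6b, Ugt2b34, Ugt2b37 and Ugt2b38) and 4 of 7 SULT genes (Sult1a1, Sult1b1, Sult1c2 and Sult1d1), and higher by at least 1 in 0 of either. In the soluble GSTs it was higher by at least 1 in 7 of 20 (Gstm4, Gstm5, Gstm7, Gsto2, Gstt1, Gstt2 and Gstt3) and lower in 0. The summed colonocyte markers were also lowest on that array within the group (110, against 198 and 304). No test of these counts was made, and a single array allows none.

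**Figure D4:**
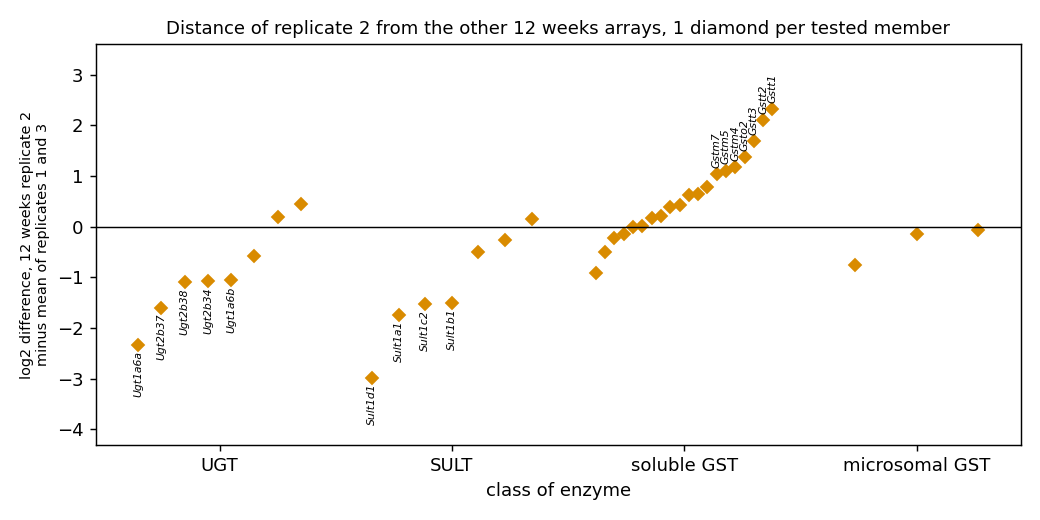
Each diamond is 1 tested member and shows, on the log2 scale, how far 12 weeks replicate 2 lay from the mean of replicates 1 and 3; members at 1 or more from 0 are named. UGT and SULT genes that departed lay lower (down to -2.98 for Sult1d1) and soluble GSTs that departed lay higher (up to 2.32 for Gstt1).

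The supply of the co-substrates was read from lists of pathway genes. Over all tested genes, 19.1% rose and 22.7% fell at 12 against 0 weeks, 16.7% and 16.1% at 60 against 0 weeks, and 20.7% and 17.6% at 60 against 12 weeks. Counts of this list and of those that follow are to be read beside these shares, and no test of them was made. Of 13 tested genes for glutathione synthesis and recycling, 5 rose and 0 fell at 12 against 0 weeks, 4 rose and 2 fell at 60 against 0 weeks, and 3 rose and 7 fell at 60 against 12 weeks. Oplah, which recycles oxoproline, changed by 4.99 ± 0.29 and 5.30 ± 0.29 at 12 and at 60 against 0 weeks (adjusted p = 8.48e-06 and 7.43e-06). Cbs, of cysteine synthesis, rose by 3.31 ± 0.19 at 12 against 0 weeks (adjusted p = 7.14e-06) and by 0.87 ± 0.19 at 60 against 0 weeks (adjusted p = 0.00898). Slc7a11, the cystine importer, rose by 3.96 ± 0.39 at 12 against 0 weeks (adjusted p = 0.00013). In contrast the subunits of the rate-limiting glutamate-cysteine ligase, Gclc and Gclm, fell at 60 against 0 weeks by 1.07 ± 0.14 and 0.96 ± 0.15 (adjusted p = 0.000847 and 0.00168) and were not called at 12 against 0 weeks.

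Of 6 genes that supply UDP-glucuronate or remove glucuronides, 2 rose and 1 fell at 12 against 0 weeks, 3 rose and 1 fell at 60 against 0 weeks, and 1 rose and 1 fell at 60 against 12 weeks. Gusb, the enzyme that splits glucuronides in lysosomes, rose by 1.53 ± 0.15 at 12 and by 1.16 ± 0.15 at 60 against 0 weeks (adjusted p = 0.000112 and 0.000607), and Slc35d1, which carries UDP-glucuronate into the endoplasmic reticulum, by 0.94 ± 0.14 and 1.21 ± 0.14 (adjusted p = 0.00135 and 0.000451). Ugdh, which makes UDP-glucuronate, did not fall with the UGT genes. It stood at 5.12, 5.28 and 5.09 at 0 weeks and at 5.60, 5.65 and 5.38 at 60 weeks (0.38 ± 0.12 higher at 60 weeks, adjusted p = 0.0475, with the call lost without any 0 weeks array, 12 weeks replicate 3 or 60 weeks replicate 1 or 2, highest adjusted p = 0.14, and with the row as a block, 0.561).

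Of 11 genes of sulfate activation and supply, 6 rose and 2 fell at 12 against 0 weeks, 1 rose and 2 fell at 60 against 0 weeks, and 3 rose and 7 fell at 60 against 12 weeks. The PAPS synthases moved in opposite directions. Papss2 stood at -2.24, -1.85 and -1.72 on the 0 weeks arrays, 1.93, 1.91 and 2.22 at 12 weeks and -1.93, -1.68 and -1.80 at 60 weeks. It rose by 3.96 ± 0.16 at 12 against 0 weeks (adjusted p = 9.93e-07) and fell by 3.82 ± 0.16 at 60 against 12 weeks (adjusted p = 1.64e-06). Papss1 fell by 0.58 ± 0.11 at 12 against 0 weeks (adjusted p = 0.0038) and rose by 1.12 ± 0.11 at 60 against 12 weeks (adjusted p = 0.00021).

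Of 9 tested export pumps 4 rose and 0 fell at 12 against 0 weeks, 4 rose and 0 fell at 60 against 0 weeks, and 0 rose and 1 fell at 60 against 12 weeks. Of all tested genes 41.8%, 32.8% and 38.3% were called in these comparisons. Abcg2, which exports sulfates and glucuronides, was above background on 2 of the 0 weeks arrays and rose by 4.35 ± 0.84 at 12 against 0 weeks (adjusted p = 0.00419; 3.34 without 0 weeks replicate 1 and 5.05 without 0 weeks replicate 3), and at 60 weeks was not above background and at least 18.1-fold lower than at 12 weeks (adjusted p = 0.00222). Abcb1b, a multidrug pump, rose by 1.10 ± 0.17 at 12 against 0 weeks (adjusted p = 0.0015) and by 0.76 ± 0.17 at 60 against 0 weeks (adjusted p = 0.0104). Of 15 other detoxifying enzymes 1 rose and 5 fell at 12 against 0 weeks, 1 rose and 3 fell at 60 against 0 weeks, and 3 rose and 2 fell at 60 against 12 weeks. These shares of calls are near those of all tested genes. The riser against 0 weeks was Gpx2, the epithelial glutathione peroxidase (1.58 ± 0.19 at 12 and 1.70 ± 0.19 at 60 weeks, adjusted p = 0.000374 and 0.000303), and Nqo1, a standard NRF2 target, fell by 1.10 ± 0.25 at 60 against 0 weeks (adjusted p = 0.0103).

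Of 25 regulators of conjugation genes 5 rose and 5 fell at 12 against 0 weeks, 3 rose and 4 fell at 60 against 0 weeks, and 5 rose and 4 fell at 60 against 12 weeks. These shares of calls are near those of all tested genes (41.8%, 32.8% and 38.3%), so the counts show no response of the list as such. Hnf4a, a nuclear receptor of gut and liver epithelium, rose by 1.31 ± 0.11 at 12 against 0 weeks (adjusted p = 5.18e-05) and changed by -0.06 ± 0.11 at 60 against 0 weeks (adjusted p = 0.711).

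Nfe2l2 stood at 6.16, 6.19 and 6.36 on the 0 weeks arrays, 5.65, 5.36 and 5.53 at 12 weeks and 5.30, 5.12 and 5.24 at 60 weeks. It fell by 0.72 ± 0.11 at 12 against 0 weeks (adjusted p = 0.00142) and by 1.02 ± 0.11 at 60 against 0 weeks (adjusted p = 0.000292). Nr1i2, the xenobiotic receptor PXR, was not above background at 60 weeks and at least 2.34-fold lower there than at 0 weeks (adjusted p = 0.0139). Cdx2, of intestinal identity, rose by 0.82 ± 0.20 at 12 against 0 weeks (adjusted p = 0.0126), and at 60 against 0 weeks was 0.34 ± 0.20 higher without a call (adjusted p = 0.223). Ahr, the aryl hydrocarbon receptor, was not called (-0.43 ± 0.21 at 12 against 0 weeks, adjusted p = 0.131, and 0.06 ± 0.21 at 60 against 0 weeks, adjusted p = 0.856), but at 12 against 0 weeks was called without 12 weeks replicate 2 (-0.65, adjusted p = 0.0123). With the row as a block the calls at 60 against 0 weeks of Nfe2l2 (-0.82, adjusted p = 0.059), Gclc (0.0627), Gusb (0.0654), Gpx2 (0.0691), Abcb1b (0.0789), Cbs (0.0739) and Nr1i2 (0.306) ended.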

How the data were processed

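Per the file headers, the authors quantified the scans in Agilent Feature Extraction 10.7.3.1 (protocol GE1_107_Sep09, design build mm9:NCBI37:Jul2007). The deposited intensity of a spot was background-subtracted and spatially detrended, per the file headers. The deposited value table gives a signal for 42530 probes; its processing is not given in the sources used here, but each column equals the intensities divided by 1 constant, 0.993 to 0.999 of the 75th percentile, on a linear scale without centring. Its column medians were 0.0668, 0.0719 and 0.0705 for the 0 weeks arrays, 0.0619, 0.0681 and 0.0733 at 12 weeks, and 0.0673, 0.0695 and 0.0582 at 60 weeks.

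Outlier spots (117 to 163 of 59305 per array) were left out, spots of a probe averaged, and log2 intensities taken relative to the 75th percentile over non-control probes. No spot was saturated (0 per array). Probes well above background on at least 2 of 3 arrays of a group were kept and named by RefSeq accession in a GRCm38.p6 table (27235 probes with 1 symbol, 0 with several, 28446 with none), and the brightest probe stood for a gene. limma 3.58.1 (lmFit, eBayes) in R 4.3.3 was fitted over all 9 arrays, with 2-sided tests and Benjamini-Hochberg adjustment over all tested genes. Where no array of a group was above background, "at least N-fold" sets each of its arrays to the lowest log2 value called well above background there, or to the probe's own value if higher. The precision is limited by 3 arrays per group. The normexp alternative used median spot signals, since mean signals were not used here. The fit was tested on simulated data.

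The members and lists were chosen with earlier results of these data known. Values per array are given for called members that changed at least 2-fold or were below background in a group. Pathway genes named are a choice from the first 5 by adjusted p per list and comparison, beside 5 regulators named whatever their result. Not all of the first 5 are named. Cebpa, Dpep1, Esr1, Keap1, Sumf1, Tst and Uxs1 were passed over, each with a lower adjusted p in a comparison than a gene named from its list. At 60 against 0 weeks Dpep1 changed by 3.87, Keap1 by -0.41 and Uxs1 by -0.57 (adjusted p = 0.00152, 0.00919 and 0.0124). With the row as a block these 3 were not called (adjusted p = 0.11, 0.136 and 0.128). A result of the list of regulators and 1 of the 3 promoter motifs searched are not reported here.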

Additional observations from a re-analysis of the deposited data

How the results depend on the processing

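With 24 alternatives, 11 of the 24 members called at 12 against 0 weeks, 10 of 23 at 60 against 0 weeks and 15 of 26 at 60 against 12 weeks were called with the same sign in every one. The direction of a called member turned once: Gstm3 at 60 against 0 weeks was 0.83 with the mean of its probes. Members higher at 12 against 0 weeks numbered 6 among probes above background on all 9 arrays, 5 with the row of slides as a block and 7 to 12 with 1 array left out, against 11. The filter behind the 6 left Gstt2, Sult1d1, Sult4a1, Ugt1a10 and Ugt2b38 untested, which are among the 11. That lower count is therefore one of fewer members tested. Members lower there numbered 8 with median scaling, 8 with the row block and 8 to 13 with 1 array left out, against 13. At 60 against 0 weeks the row block gave 1 higher and 9 lower, and leaving out 1 array 4 to 11 higher and 15 to 17 lower, against 7 and 16. At 60 against 12 weeks 7 rose when only the groups compared were fitted, 4 with the row block, 7 with chromosome centring and 6 to 13 with 1 array left out, against 11, and 13 to 19 fell, against 15. Calls over all tested genes numbered 5860, 4600 and 5378 in the 3 comparisons, and 4473, 1392 and 3468 with the row block. With 1 array left out they ranged from 4228 to 7405, 3195 to 6022 and 3624 to 7072. Median scaling moved the share of higher calls among members at 12 against 0 weeks to 57.9%, from 45.8%, and the median of all tested genes to 0.17 at 60 against 12 weeks and to 0.08 at 60 against 0 weeks.

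The replicate block gave 10 higher and 11 lower at 12 against 0 weeks, 6 and 16 at 60 against 0 weeks, and 11 and 15 at 60 against 12 weeks, with 31 called by the F test. Deviations of same-numbered arrays correlated between -0.08 and 0.20, so the replicate numbers are not known to pair arrays. The slide block equals leaving out 60 weeks replicate 3, the lone array of its slide. Dim members have values near the lowest signal called above background, and where no array of a group was above background their fold changes are bounds.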
